A study of Mus musculus with 4 samples.

Results

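The Notch genes described here are 4 receptors (Notch1, Notch2, Notch3, Notch4), 4 ligands (Dll1, Dll4, Jag1, Jag2) and 2 transcriptional targets (Hey1, Heyl). They were chosen by symbol, and all 10 were found among the 32286 features of a single-cell RNA table of mouse cardiac interstitial cells. The cells came from hearts of mice of the strain labelled Ccr2creERT2-Ai14, 1 month after stroke or under control conditions, with 2 control and 2 stroke samples. This strain name joins an inducible Cre recombinase driven from Ccr2, a gene of monocytes and of macrophages derived from them, to Ai14, a tdTomato reporter switched on by Cre. Both groups carry both alleles. The labels state no age, sex, tamoxifen dosing or number of hearts per sample. Hearts were digested, strained to take out cardiomyocytes, freed of red cells and dead cells, and sorted for live nucleated cells before 10x 3′ sequencing. The 4 libraries are joined in 1 table, and their numbers (1 to 4) are not tied to the sample labels, so no value below compares stroke with control. Whether the 4 samples came from separate animals is not stated either, and the spread between libraries mixes treatment, animal and technical differences.

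Notch receptors are single-pass membrane proteins that bind Delta-like or Jagged ligands on a neighbouring cell. Ligand binding lets proteases release the receptor's intracellular domain, which enters the nucleus, joins the DNA-binding protein RBPJ and a Mastermind coactivator, and switches on genes such as those of the Hes and Hey families. In blood vessels the pathway is known for arterial identity, for holding back endothelial sprouting, and for the maturation of the pericytes and smooth muscle cells that wrap the endothelial tube.

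The 4 libraries held 9168 to 10473 barcodes and 31955157 to 45834980 UMIs (unique molecular identifiers, 1 per captured RNA molecule). After filters on UMIs, genes, mitochondrial share and doublets, 37594 cells remained, with library medians of 2583 to 3487 UMIs per cell. The libraries shared 161 barcode sequences. Clusters made without any Notch gene were named from marker genes and gave 23 classes and subtypes of at least 50 cells, called cell groups here. Among them were 9 endothelial subtypes (22381 cells), pericyte-like cells (463) and smooth muscle-like cells (97), the last 2 together called mural. A list of 7 endothelial markers summed to between 3068 and 5264 CPM (UMIs per 1000000 UMIs of the cell group) in the endothelial subtypes and to at most 575 CPM elsewhere. These markers had served in naming the cells, so the sums are a description and no independent check. They do not bear on the names of the subtypes. Cardiomyocyte-like cells numbered 28 and were not described further. The size of the large artery-like group depended on the processing. It held 438 cells as reported, 124 under a stricter cell filter, 116 with doublets kept and 135 at a finer clustering. Aplnr capillary-like cells numbered 2963 as reported and 1182, 4318 and 1274 in the same settings. Some groups were absent in a setting. Valve endocardial-like cells (167 as reported) were absent with doublets kept and at the finer clustering. Dendritic-like cells (251) were absent under the stricter filter and at the finer clustering, and monocyte-like cells (116) under the stricter filter.

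Levels are a gene's summed UMIs in a cell group as CPM of that group's UMIs, over all libraries, with exact 95% counting intervals in brackets. These intervals cover counting error only, since cells of a library are not replicates. No label says whether reads in introns were counted, so levels are compared between cell groups for 1 gene, not between genes. In a bulk of summed cells, fewer expressing cells and less RNA per cell cannot be told apart, and shares of cells with a UMI are therefore given for cells thinned to 1000 UMIs each.

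Of the 10 genes, 7 had their highest level in an endothelial subtype, 2 in mural cells and 1 in immune cells. Endothelial subtypes make up many of the cell groups. The same split over all genes was not counted, so these counts have no background beside them. Endothelial cells held 39.2% of all UMIs, and they held 94.4% of the Jag2 UMIs, 94.3% of Dll4, 93.6% of Notch4, 90.9% of Dll1, 86.8% of Hey1, 80.6% of Notch1 and 56.4% of Jag1. They held 8.07% of the Notch2, 2.70% of the Notch3 and 2.21% of the Heyl UMIs. Mural cells, with 0.835% of all UMIs, held 51.6% of the Notch3 UMIs. Fibroblast-like cells, with 36.6% of all UMIs, held 89.6% of the 5027 Heyl UMIs: they numbered 8184 cells, and their level was below that of pericyte-like cells.

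**Figure D1:**
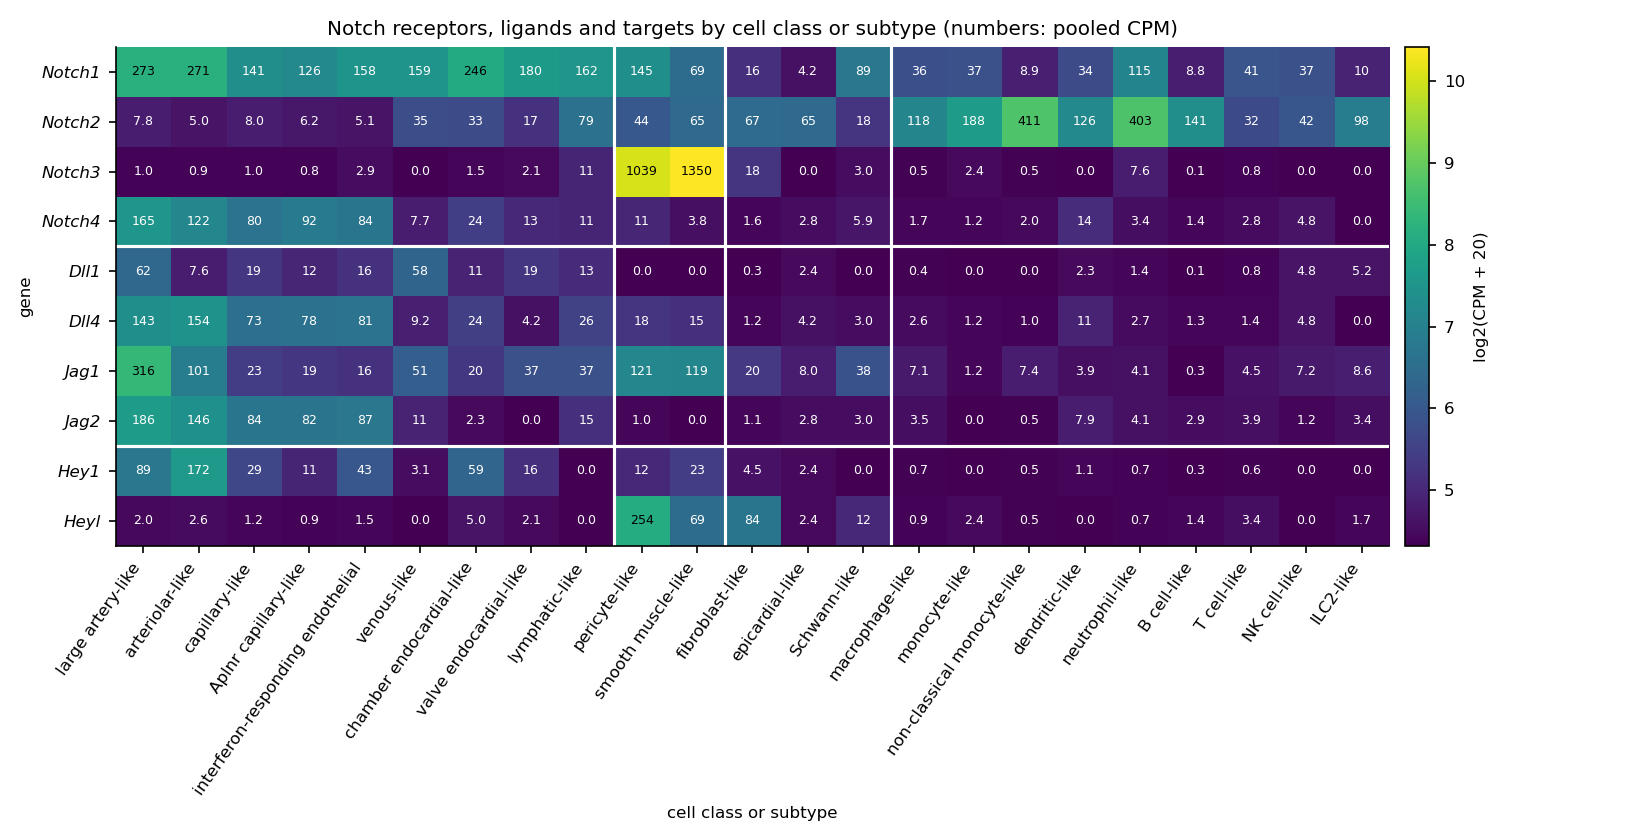
Pooled level of each gene (y axis) in each of the 23 cell groups (x axis), coloured by log2(CPM + 20) and printed as CPM; white lines part receptors, ligands and targets, and endothelial, mural, other stromal and immune groups. Notch3 stands out at 1039 and 1349.9 CPM in the 2 mural groups, and Notch4, Dll4 and Jag2 share their high groups at the left.

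**Figure D2:**
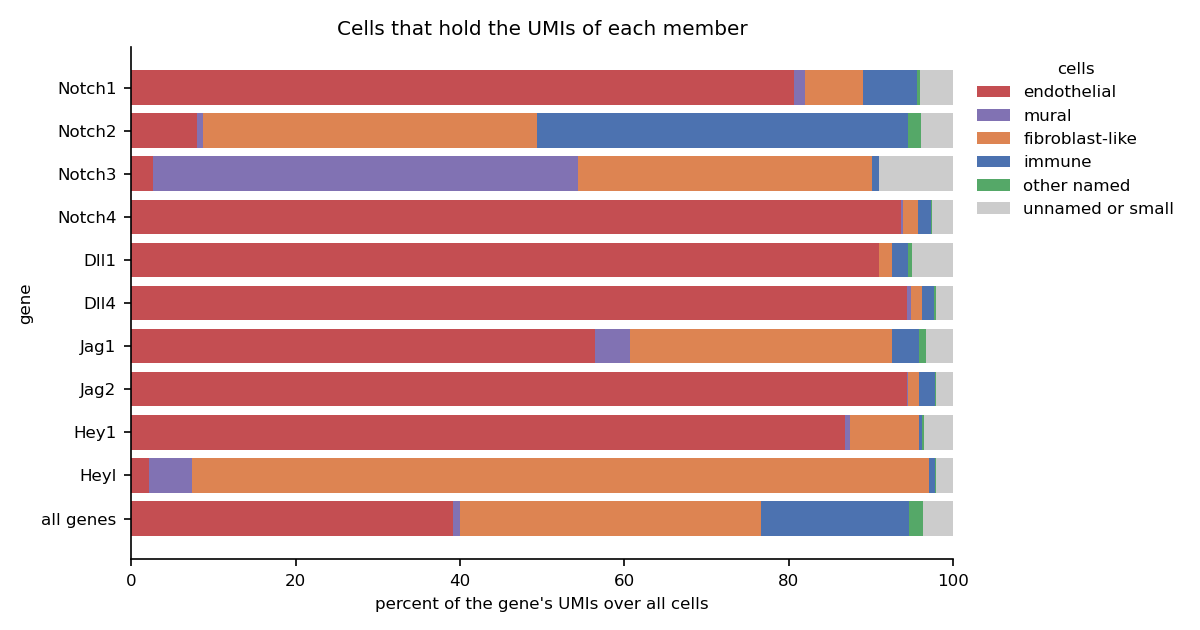
Percent of each gene's UMIs over all cells (x axis) that came from endothelial, mural, fibroblast-like, immune, other named and remaining cells, with all genes together in the bottom bar. Dll4, Jag2 and Notch4 each had over 90% of their UMIs in endothelial cells, against 39.2% for all genes.

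The genes lie on 5 mouse chromosomes (mm10, GENCODE M21 gene bounds), and all are protein-coding. Notch1 spans chr2:26457903-26516663 on the minus strand, Notch2 chr3:98013527-98150361 on the plus strand, Notch3 chr17:32120820-32166852 on the minus strand and Notch4 chr17:34564268-34588503 on the plus strand. Dll1 spans chr17:15367354-15376872 (minus), Dll4 chr2:119325784-119335962 (plus), Jag1 chr2:137081456-137116644 (minus) and Jag2 chr12:112907819-112929776 (minus). Hey1 spans chr3:8663359-8667256 (minus) and Heyl chr4:123233556-123249875 (plus). Exons of Notch1 overlap exons of 0610009E02Rik and Gm13568 on the other strand, those of Notch3 overlap Gm17276 and those of Dll4 overlap Gm14207. Exons of Notch2 overlap Gm42820 on the same strand, and those of Dll1 overlap A930024N18Rik on the other strand. Neither Gm42820 nor A930024N18Rik is among the features. No label says how the counting treated strand, and the Notch2 overlap could not be told apart by strand. A share of these genes' UMIs could therefore come from the overlapping genes.

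Upstream sequences of 3 genes are shown because these genes mark the ends of the pattern above: Notch4 and Dll4 as endothelial genes, Notch3 as the mural one. Each runs 5′ to 3′ on the gene's own strand and was taken from before the gene's RefSeq start (GRCm38.p6). The Notch4 stretch was trimmed to 223 bases, since an annotated transcript begins before its RefSeq start. The Notch3 stretch ends short of the gene bounds given above, since its RefSeq start lies outside them. Capitals mark matches to AGGAAG or CGGAAG on either strand, cores bound by ETS factors, a family known in endothelial gene control. The Notch4 stretch is chr17:34564045-34564267, the Dll4 stretch chr2:119325534-119325783 and the Notch3 stretch chr17:32166891-32167140.
Notch4: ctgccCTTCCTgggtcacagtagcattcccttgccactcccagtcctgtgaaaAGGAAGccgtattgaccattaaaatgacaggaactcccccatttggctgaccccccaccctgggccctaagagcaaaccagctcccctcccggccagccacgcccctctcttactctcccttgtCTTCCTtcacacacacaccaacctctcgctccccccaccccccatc
Dll4: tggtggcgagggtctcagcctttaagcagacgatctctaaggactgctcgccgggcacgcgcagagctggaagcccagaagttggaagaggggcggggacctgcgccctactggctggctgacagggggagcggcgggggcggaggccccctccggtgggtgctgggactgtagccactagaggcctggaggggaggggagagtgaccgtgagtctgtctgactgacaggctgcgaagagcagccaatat
Notch3: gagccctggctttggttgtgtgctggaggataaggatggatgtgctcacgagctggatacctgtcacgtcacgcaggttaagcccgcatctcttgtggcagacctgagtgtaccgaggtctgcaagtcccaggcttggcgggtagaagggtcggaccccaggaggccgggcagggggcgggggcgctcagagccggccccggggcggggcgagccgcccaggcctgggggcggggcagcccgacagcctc
Windows of 250 bases before a RefSeq start were found for 8 of the 10 genes (9 windows), and Hey1 and Heyl were not searched. The Notch1 window, the Jag2 window and 1 Dll1 window lie wholly inside the gene bounds given above. Those of Notch2, Notch4 and Jag1 reach into them. Notch4 held 3 ETS cores, at -245 and -73 on the minus strand and at -197 on the plus strand. These positions count from the RefSeq start, before which the window ends at chr17:34564294. They do not count from the end of the printed stretch, at 34564267. Notch2 held 1, at -50, and Dll1 held 1, at -14, in its window inside the gene bounds. The Dll1 window before those bounds held none, and the Dll4 and Notch3 stretches held none of these letters. Of 32817 windows of the same length, 39.2% held at least 1 such core and 2.78% held at least 3. The RBPJ core TGGGAA, searched on both strands, was in none of these 9 windows and in 21.6% of all windows, and GTGGGAA, which contains it, was in 5.42%. A match or its absence in these letters describes the sequence alone.

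Notch1, the receptor best known in endothelium and endocardium, had high levels in both arterial groups and in the chamber endocardium. In large artery-like cells it was 273 CPM (242–307), with 321, 303, 292 and 236 CPM in libraries 1 to 4. In arteriolar-like cells it was 271 CPM (256–286), with 259, 283, 291 and 253 CPM by library. In chamber endocardial-like cells it was 246 CPM (236–256), with 242, 262, 281 and 229 CPM by library. The ranges over libraries overlapped between these 3 groups. The 2 arterial groups could not be put in an order, since the interval of their ratio (0.883–1.15) spans equality, while arteriolar-like cells exceeded chamber endocardial-like cells within each of the 4 libraries, at a ratio of 1.10 (1.03–1.18). Capillary-like cells followed at 141 CPM (136–145), with 127, 151, 145 and 139 CPM by library, and every one of these lay below every library of the 3 leading groups. Between them lay valve endocardial-like, lymphatic-like (162), venous-like (159) and interferon-responding endothelial cells (158), whose neighbours in the order overlapped.

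Notch1 was also present outside endothelium. Pericyte-like cells had 145 CPM (122–171), with 141, 91.6, 176 and 166 CPM by library, which overlapped the capillary-like libraries. The endothelial marker list summed to 575 CPM in pericyte-like cells (495–606 over libraries) against 5025 CPM in capillary-like cells, and endothelial Notch4, Dll4 and Jag2 had 11.4, 17.6 and 1.03 CPM there. Neutrophil-like cells had 115 CPM (98.0–134). Fibroblast-like cells had 16.0 CPM (14.98–17.1) and B cell-like cells 8.75 CPM (6.81–11.1). After thinning, 24.2% of arteriolar-like, 22.2% of chamber endocardial-like, 13.5% of capillary-like and 11.9% of pericyte-like cells held a Notch1 UMI (44.6%, 58.7%, 24.7% and 24.4% before thinning, at median depths of 2229, 3726.5, 1981 and 2018 UMIs). B cell-like cells, taken as a background for free RNA, had 1.07% after thinning and 3.65% before, at a median of 4009 UMIs.

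Notch2, a receptor with known parts in myeloid and B cells, was the one member highest in immune cells. In non-classical monocyte-like cells, the patrolling monocytes, it was 411 CPM (384–440), with 499, 367, 433 and 468 CPM by library. In neutrophil-like cells it was 403 CPM (371–437), with 354, 433, 407 and 393 CPM. These 2 groups overlapped, and both lay above monocyte-like cells (188 CPM, 145 to 239 over libraries) in every library. The ratio of neutrophil-like to monocyte-like cells was 2.15 (1.80–2.57). B cell-like (141), dendritic-like (126) and macrophage-like cells (118) followed with overlapping libraries.

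Within vessels the level of Notch2 differed between endothelial subtypes. Endothelial cells together had 12.4 CPM (11.5–13.4), and capillary-like cells 8.03 CPM (6.998–9.16). The highest endothelial subtype was lymphatic-like, at 78.8 CPM (55.2–109), with 86.6, 53.6, 130.1 and 59.3 CPM by library, all above the capillary libraries (7.44 to 8.81). Venous-like cells had 35.2 CPM (22.3–52.9), from 15.8 to 99.8 CPM by library. Chamber endocardial-like cells had 33.1 CPM (29.6–37.0), with 27.5, 35.8, 36.9 and 34.5 CPM by library, none of which reached down to a capillary library. Pericyte-like cells had 44.4 CPM (32.1–59.8) and smooth muscle-like cells 65.0 CPM (37.9–104). Fibroblast-like cells, at 67.2 CPM (65.0–69.4), held 40.7% of all Notch2 UMIs, near their 36.6% share of the UMIs of all genes.

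Notch3, the receptor of mural cells, whose human counterpart is mutated in the small-vessel disease CADASIL, had by far the steepest distribution. Smooth muscle-like cells had 1349.9 CPM (1213–1498), with 1301, 1529, 1954 and 1199 CPM by library. Pericyte-like cells had 1039 CPM (975–1105), with 982, 1241, 989 and 1094 CPM. The smooth muscle level was higher in all 4 libraries, at a ratio of 1.30 (1.15–1.47), although the 2 groups' library ranges overlapped and libraries 2 and 3 held only 10 and 11 smooth muscle-like cells. The next group, fibroblast-like cells, had 17.5 CPM (16.4–18.7), a pericyte to fibroblast ratio of 59.3 (54.2–64.9). Endothelial cells had 1.23 CPM (0.961–1.55). A Notch3 UMI was found in 63.9% of thinned pericyte-like cells and 73.9% of thinned smooth muscle-like cells (79.3% and 93.8% before thinning), and in 0.0652% of B cell-like cells before thinning.

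Fibroblast-like cells are of 3 clusters, and Notch3 was uneven among them. The Smoc2-led cluster (4133 cells) had 31.1 CPM (28.9–33.4), with 34.3, 30.0, 25.3 and 29.9 CPM by library. The Pi16-led cluster (2087 cells) had 1.98 CPM (1.36–2.77), between 1.26 and 2.49 CPM by library. A list of 8 pericyte markers summed to 227 CPM in fibroblast-like cells (225–231) against 22054 CPM in pericyte-like cells, and its part in the fibroblast value of Notch3 was not tested.

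Notch4, the receptor largely restricted to endothelium, was highest in large artery-like cells at 165 CPM (141–191), with 171, 158, 168 and 161 CPM by library. Arteriolar-like cells had 122 CPM (112–132), with 126, 153, 115 and 104 CPM, all below the large artery libraries. Under a stricter cell filter, however, which left 124 large artery-like cells instead of 438, their level was 138 CPM and arteriolar-like cells led. Aplnr capillary-like cells, a capillary group marked by the apelin receptor, had 92.1 CPM (85.9–98.5), and interferon-responding and capillary-like cells had 83.6 and 80.3 CPM. The last 3 overlapped. A clear step came next: chamber endocardial-like cells had 24.0 CPM (20.99–27.3), with 22.3, 30.0, 30.2 and 20.4 CPM by library, and the capillary-like level was 3.35 times (2.92–3.85) as high. Venous-like cells had 7.66 CPM (2.49–17.9) from 5 UMIs. Notch1, in contrast, had overlapping libraries in venous-like and interferon-responding cells, and higher in chamber endocardial-like than in capillary-like cells.

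Dll4, the ligand of arterial and sprouting endothelium, followed the same groups as Notch4. Arteriolar-like cells had 154 CPM (143–166), with 143, 147, 170.3 and 152 CPM by library. Large artery-like cells had 143 CPM (121–168), with 157, 211, 168 and 118 CPM, and the 2 groups could not be ordered. Interferon-responding (80.7), Aplnr capillary-like (78.0) and capillary-like cells (73.5 CPM, 66.3 to 81.6 by library) overlapped at about the same level. Below them, chamber endocardial-like cells had 24.2 CPM (21.2–27.5), venous-like cells 9.19 CPM (3.37–20.002) and valve endocardial-like cells 4.19 CPM (1.14–10.7). Pericyte-like cells had 17.6 CPM (10.2–28.1), at 28.9 and 16.7 CPM in libraries 1 and 2 and with no UMI in libraries 3 and 4.

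Jag2 had the sharpest edge of the ligands. It was 186 CPM (161–215) in large artery-like cells, with 207, 158, 233 and 165 CPM by library. In arteriolar-like cells it was 146 CPM (135–157), with 154, 120.1, 164 and 132 CPM, lower in each library although the ranges touched. Arteriolar-like cells led under a stricter cell filter and at a finer clustering, where the large artery level was 151 and 142 CPM. Interferon-responding, capillary-like and Aplnr capillary-like cells lay at 86.8, 83.5 and 81.7 CPM and overlapped. Outside these 5 groups the highest level was 15.3 CPM, in lymphatic-like cells, and the step from Aplnr capillary-like cells was 5.33-fold (2.57–13.3). Chamber endocardial-like cells had 22 Jag2 UMIs in 2280 cells (2.31 CPM, 1.44–3.49), valve endocardial-like cells had 0 UMIs, which allows up to 3.14 CPM, and mural cells had 1 UMI. The B cell-like background was 2.92 CPM (1.85–4.38), and the endocardial level did not exceed it. Other non-endothelial groups lay on both sides of the chamber level, such as fibroblast-like cells at 1.13 CPM and macrophage-like cells at 3.55 CPM. This reading therefore depends on the group taken as background.

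Jag1, the ligand with known roles in smooth muscle recruitment, was the only ligand with a high level on both sides of the vessel wall. Large artery-like cells led with 316 CPM (283–353), with 301, 198, 306 and 346 CPM by library. Pericyte-like cells had 121 CPM (99.9–145), with 116, 117, 152 and 117 CPM, and smooth muscle-like cells had 119 CPM (80.6–168), with 84.7, 164, 182 and 179 CPM. Every large artery library was above every mural library, at 2.62 times (2.11–3.26) the pericyte level. Arteriolar-like cells had 101 CPM (91.6–110.1), with 111, 58.1, 93.4 and 126 CPM, which overlapped the mural values. Library 2 was the lowest in both arterial groups. The arteriolar clusters led by Alox12, Btnl9, Mannr and Nebl had 53.3, 68.7, 159 and 201 CPM of Jag1. The Nebl-led one held 153 cells of library 1 and 13 of library 2, and its part in the library 2 value was not tested. Capillary-like cells were far lower, at 23.5 CPM (21.7–25.3), and stayed within 21.2 and 25.5 CPM in all libraries. Jag1 also differed among pericyte clusters: the one of 190 cells had 187 CPM (147–234), between 140.1 and 204 CPM by library, and the one of 107 cells had 60.8 CPM (34.7–98.7), between 27.1 and 104 CPM.

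Dll1, the other Delta-like ligand, was the rarest member, with 1045 UMIs in all cells. It had its high levels in 2 groups that no other member paired: large artery-like cells with 61.7 CPM (47.4–79.0) and venous-like cells with 58.2 CPM (41.2–79.9). The large artery libraries gave 50.2, 52.7, 87.5 and 62.9 CPM, from 4 to 32 UMIs each, and the venous libraries 51.7, 76.8, 52.6 and 55.2 CPM, from 5 to 14 UMIs each. They overlapped, and all 8 values lay above the capillary-like libraries (16.8 to 21.1 CPM). The venous level was 3.09 times (2.16–4.30) the capillary level. Arteriolar-like cells, the other arterial group, had 7.60 CPM (5.29–10.6), with 6.10, 2.53, 10.5 and 9.46 CPM by library. Mural cells had 0 UMIs, which allows up to 2.44 CPM. The large artery value depended on the cells counted: it was 93.5 CPM under a stricter cell filter, 101 CPM with doublets kept and 95.4 CPM at a finer clustering. These settings left 124, 116 and 135 large artery-like cells, against 438 as reported. Of the 2 large artery clusters, the Gkn3-led one (128 cells) had 93.5 CPM (67.7–126) and the Pcsk5-led one (310 cells) 35.7 CPM (21.8–55.1).

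**Figure D3:**
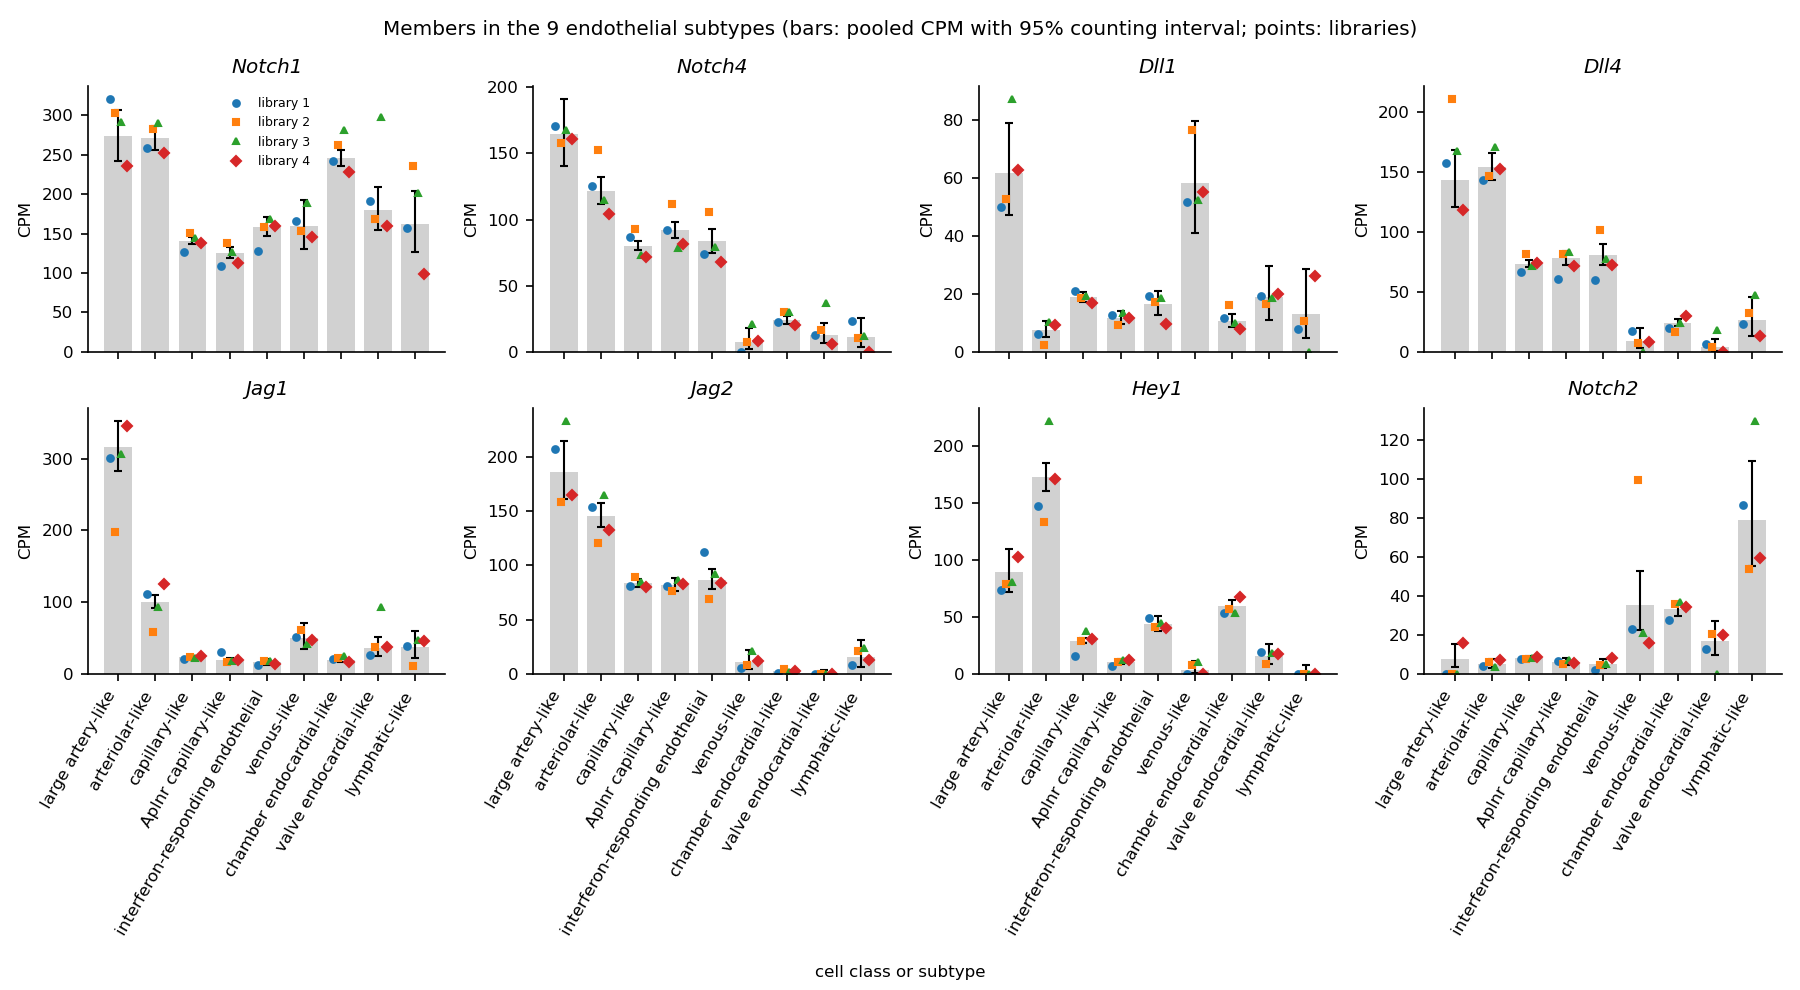
Level in CPM (y axes, each from 0) of 8 genes in the 9 endothelial subtypes (x axis); bars are pooled values with 95% counting intervals, and the 4 markers are the libraries. Dll1 shows its 2 high groups at 61.7 and 58.2 CPM, Hey1 peaks in arteriolar-like cells at 172 CPM, and Jag2 has almost no signal in the endocardial groups.

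Hey1, a repressor of the Hey family and a target of endothelial Notch signalling, had an order in which neighbours separated more often than for any other member. Arteriolar-like cells had 172 CPM (160.4–185), with 147, 133, 222 and 170.2 CPM by library. Large artery-like cells had 89.1 CPM (71.8–109), with 73.6, 79.1, 80.2 and 102 CPM. Chamber endocardial-like cells had 59.3 CPM (54.5–64.4), with 53.1, 56.7, 53.0 and 67.2 CPM. The library ranges of these 3 groups did not overlap, and interferon-responding cells (43.4 CPM, 40.6 to 49.1) and capillary-like cells (28.9 CPM, 15.6 to 37.3) made 2 further steps. Over all 22 neighbouring pairs of groups, the library ranges overlapped in 17 for Hey1 and in 19 to 21 for the other members. Aplnr capillary-like cells had 10.8 CPM (8.76–13.2), venous-like cells 2 UMIs, and lymphatic-like cells 0 UMIs, which allows up to 6.57 CPM.

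The capillary-like level of Hey1 was a mixture of unlike clusters. The Btnl9-led cluster (3865 cells) had 73.8 CPM (68.2–79.8), with 38.1, 81.6, 89.9 and 75.9 CPM by library. Its leading genes included Car4, a capillary marker used in naming, and Cxcl12, an arteriolar one. Btnl9 and Cxcl12 were also among the leading genes of the Alox12-led arteriolar cluster. Whether arteriolar cells lie in the Btnl9-led capillary cluster was not tested. The Timp4-led cluster (3148 cells) had 7.87 CPM (5.94–10.2), with 6.91, 6.72, 8.51 and 8.97 CPM, and the G630055G22Rik-led cluster (2160 cells) had 2.16 CPM (1.18–3.62), between 1.11 and 3.30 CPM. No library of the Btnl9-led cluster reached down to either. Dll4 and Dll1 differed between the same clusters in opposite directions. Dll4 was 102 CPM (95.3–109) in the Btnl9-led cluster and 25.1 CPM (21.4–29.3) in the G630055G22Rik-led one, with library ranges of 97.7 to 108 and 21.4 to 28.0. Dll1 was 9.06 CPM (7.16–11.3) in the Btnl9-led cluster and 39.6 CPM (35.0–44.8) in the G630055G22Rik-led one, with library ranges of 7.62 to 9.94 and 30.8 to 49.5. Notch1 was 185 CPM (176–195) in the Btnl9-led cluster and 105 CPM (97.3–113) in the G630055G22Rik-led one.

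Heyl, a Hey-family target known from smooth muscle and pericytes, was highest in pericyte-like cells at 254 CPM (223–288), with 266, 208, 231 and 264 CPM by library. Fibroblast-like cells had 83.6 CPM (81.1–86.0), with 97.0, 82.7, 72.4 and 65.4 CPM, all below the pericyte libraries, at a ratio of 3.04 (2.66–3.46). Smooth muscle-like cells had 68.8 CPM (40.8–109) from 18 UMIs, with 48.4, 54.6, 136 and 107 CPM, and overlapped fibroblasts. Endothelial cells had 1.92 CPM (1.58–2.32). Thinned shares followed this order: 21.1% of pericyte-like, 8.54% of fibroblast-like and 0.176% of endothelial cells held a Heyl UMI, against 0.268% of B cell-like cells (38.0%, 33.0%, 0.469% and 0.522% before thinning). Among fibroblast clusters the Smoc2-led had 114 CPM (109–118), the Mfap4-led 99.3 CPM (93.9–105) and the Pi16-led 27.6 CPM (25.1–30.2). The Pi16-led libraries lay between 22.7 and 31.7 CPM, below all libraries of the other 2 clusters (66.9 to 128). The pericyte marker list was 227 CPM in fibroblast-like cells against 22054 CPM in pericyte-like cells, and its part in the fibroblast value of Heyl was not tested.

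**Figure D4:**
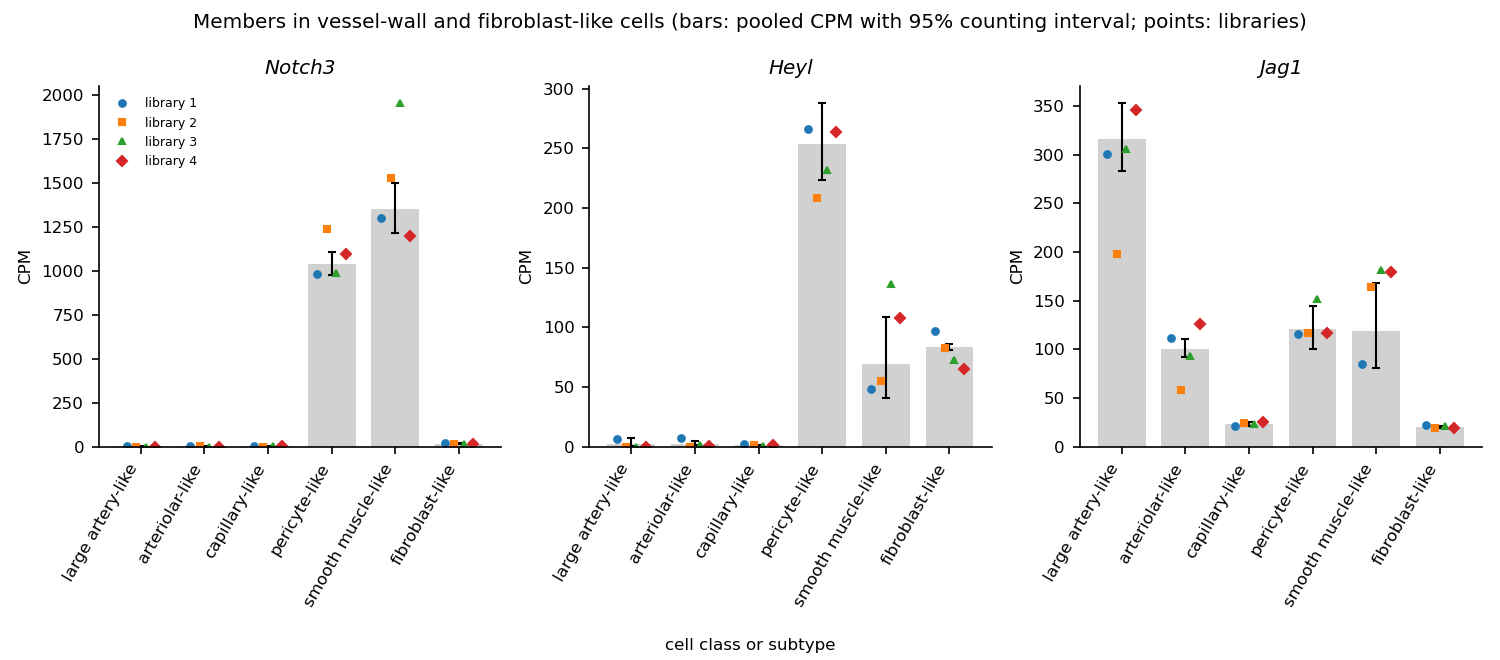
Level in CPM (y axes, each from 0) of Notch3, Heyl and Jag1 in 3 endothelial subtypes, pericyte-like, smooth muscle-like and fibroblast-like cells (x axis); bars are pooled values with 95% counting intervals and the 4 markers are the libraries. Of the groups drawn, the 2 mural ones have Notch3 levels above 1000 CPM, fibroblast-like cells have 17.5 CPM and the endothelial ones about 1 CPM, while Heyl is higher in pericyte-like than in smooth muscle-like cells in each library.

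Arterial-like cells (large artery-like and arteriolar-like, 2330 cells) were set against capillary-like cells (both capillary groups, 15704 cells). A gene was called when its pooled levels differed at least 2-fold with 20 CPM added to both sides, among genes of at least 20 CPM in either group. This is a size rule and no test. Of 6 members that could be read, 2 were called higher, against 2.11% of 7056 genes, and 0 were called lower, against 1.53%. Jag1 had 147, 70.4, 113 and 193 CPM in the arterial libraries against 22.8, 21.4, 21.2 and 24.4 CPM in the capillary ones, a ratio of 6.25 (5.66–6.90). Hey1 had 133, 128, 209 and 149.5 CPM against 13.98, 22.4, 29.7 and 27.8 CPM, a ratio of 6.45 (5.87–7.09). Neither gene's groups overlapped. The other 4 moved less in the same direction, each higher in all 4 libraries: Dll4 at 2.04 times (1.88–2.20), Notch1 at 1.98 (1.87–2.10), Jag2 at 1.84 (1.71–1.99) and Notch4 at 1.56 (1.43–1.69). The median log2 ratio of the 6 members was 0.88, beside -0.02 over all genes read.

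Endocardial-like cells (chamber and valve types, 2447 cells) differed from the same capillary-like cells in the make-up of receptors and ligands. Of 7 members read, 0 were called higher, against 7.44% of 7504 genes, and 3 were called lower, against 7.22%. The 3 were Notch4 (ratio 0.276, 0.241–0.315), Dll4 (0.300, 0.261–0.343) and Jag2 (0.0252, 0.0158–0.0383), each lower in all 4 libraries. Notch1 (1.75, 1.67–1.84), Hey1 (2.27, 2.04–2.52) and Notch2 (4.18, 3.55–4.92) were higher in all 4 libraries and did not reach 2-fold with 20 CPM added. With 5 CPM added, Notch2 and Hey1 were called, and at a finer clustering Hey1 was. Jag1 was at a ratio of 0.954 (0.819–1.11), higher in 2 of 4 libraries. The fibroblast marker list was 1789 CPM in chamber and 2755 CPM in valve endocardial-like cells, and its part in these ratios was not tested. The Hey1 ratio is that of the chamber type, at 59.3 CPM: valve endocardial-like cells had 15.7 CPM, below capillary-like cells at 28.9 CPM, and the Btnl9-led capillary cluster had 73.8 CPM. With doublets kept, Dll4 was not called. At the finer clustering and with doublets kept, 0 cells were named valve endocardial-like (167 as reported). Both settings therefore read only cells named chamber endocardial-like, a different set of cells.

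Smooth muscle-like cells (97) against pericyte-like cells (463) gave 6 members that could be read, of which 0 were called higher, against 5.26% of 7775 genes, and 1 was called lower, against 8.55%. That was Heyl, at 0.271 times (0.158–0.437) the pericyte level and lower in all 4 libraries. Its log2 ratio with 20 CPM added was -1.62, and -1.07 without library 1, which held 54 of the 97 smooth muscle-like cells. Notch1 was at 0.476 (0.274–0.781), lower in 3 of 4 libraries, and was called lower without library 2, after thinning and with 5 CPM added. Without library 1, Notch2 was called higher. Jag1 was at 0.981 (0.638–1.47), an interval wide enough to hold a difference of either sign. A list of 8 pericyte markers summed to 9908 CPM in smooth muscle-like cells (8602–15839 by library), and its part in these ratios was not tested.

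Mural-like cells (560) against endothelial-like cells (22381) gave the widest ratios. Of 9 members read, 4 were called higher, against 10.1% of 8148 genes, and 3 lower, against 10.6%. Notch3 was 898 times as high (707–1157) and Heyl 112 times (89.1–141), and no library of one group came near the other. Jag1 had 108, 123, 156 and 131 CPM in the mural libraries against 38.4, 25.01, 30.3 and 40.5 CPM in the endothelial ones, a ratio of 3.58 (3.01–4.23). Notch2 had 49.7, 65.0, 40.7 and 42.2 CPM against 12.2, 11.3, 10.5 and 15.5 CPM, a ratio of 3.92 (2.96–5.11). Both were higher in mural cells without overlap of libraries. Dll4 (0.237, 0.147–0.363), Notch4 (0.129, 0.0668–0.226) and Jag2 (0.0110, 0.000278–0.0612) were called lower. Mural Dll4 was 27.8 and 14.4 CPM in libraries 1 and 2 and had no UMI in libraries 3 and 4. Without library 1, its log2 ratio with 20 CPM added went from -1.31 to -2.00. Hey1 was at 0.334 (0.197–0.528), lower in 3 of 4 libraries, and was called lower, as the fourth member, without library 2, after thinning and with 5 CPM added. Notch1 was at 0.752 (0.639–0.880), lower in all 4 libraries.

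**Figure D5:**
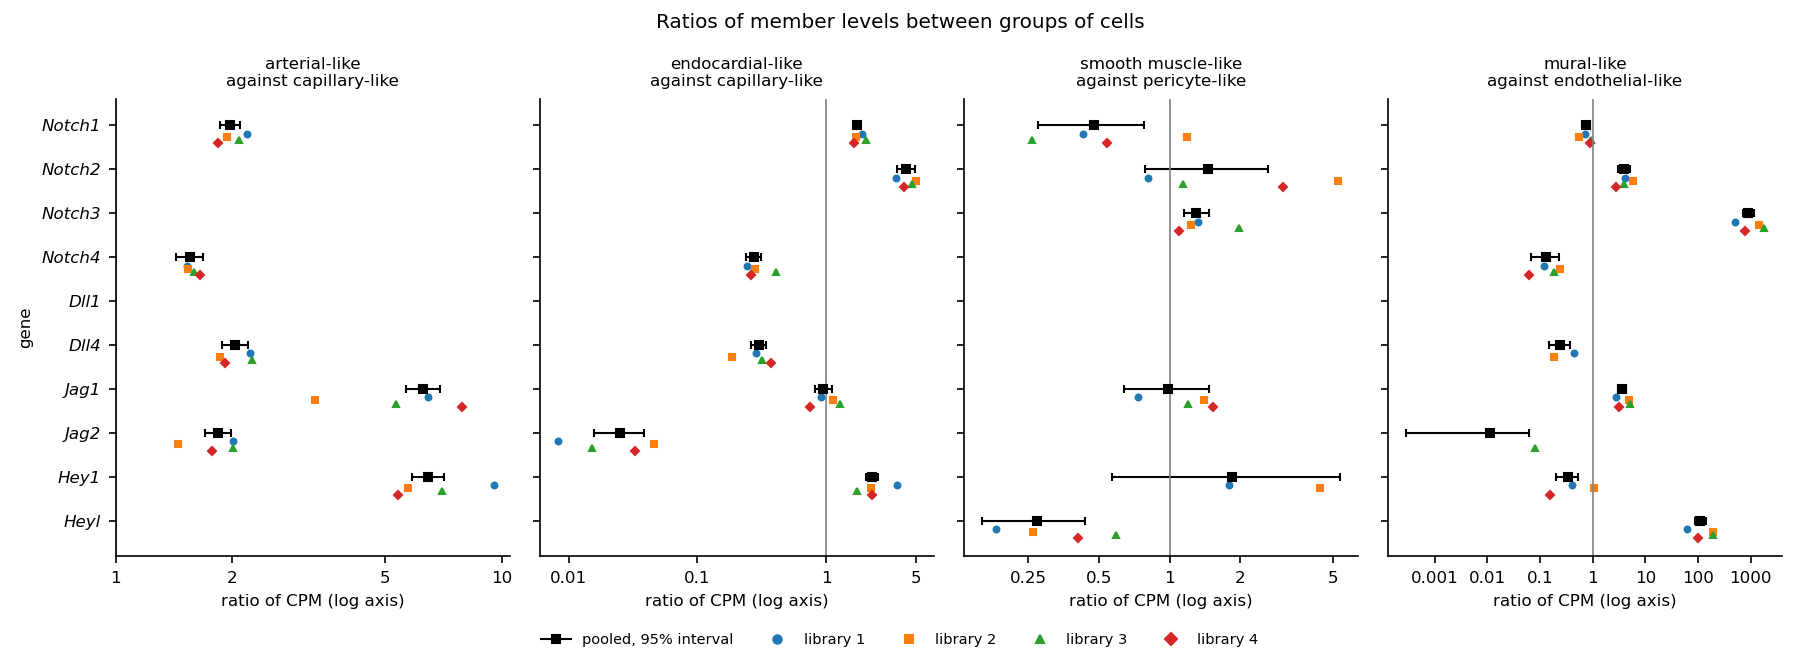
Ratio of CPM between 2 groups of cells (x axes, log scale, a ratio of 1 marked by a line) for each gene that could be read (y axis) in 4 comparisons; squares are pooled ratios with 95% counting intervals and small markers are single libraries. Jag1 and Hey1 lie above 6 in the arterial panel, Notch4, Dll4 and Jag2 lie below 1 in the endocardial panel, and Notch3 reaches 898 in the mural panel.

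Detection of 1 member was then set against detection of another within single cells of a subtype. In thinned arteriolar-like cells, Hey1 was detected in 15.4% (11.4–20.2) of the 279 cells with a Dll4 UMI and in 15.6% (13.9–17.6) of the 1508 without. In thinned pericyte-like cells, Heyl was detected in 22.7% (17.8–28.3) of the 264 cells with a Notch3 UMI and in 18.1% (12.3–25.3) of the 149 without. Both pairs of intervals overlap. In the capillary groups, Notch1 was detected in 16.6% (14.4–19.0) of 1025 cells with a Dll4 UMI and in 12.8% (12.3–13.4) of 13076 without, higher in all 4 libraries. The capillary clusters themselves differed in both genes, as given above, and the part of that difference was not tested.

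Across the 23 cell groups, levels of some members ran together. The points share libraries and depth, and the groups are not independent, so these Pearson r of log2(CPM + 20) are descriptions. Notch4 and Dll4 had r of 0.97, Notch4 and Jag2 0.96, Dll4 and Jag2 0.95, and Notch3 and Heyl 0.85. Notch2 and Notch4 ran opposite, at -0.71. Among 5404 other genes of at least 100 CPM in some group, those most like Notch3 were Carmn (0.99), Ednra (0.99) and Casq2 (0.99). Those most like Heyl were Aspn (0.98), Ebf2 (0.97) and S1pr3 (0.95). Fat4 led for Notch4 (0.97) and for Dll4 (0.95), followed by Pik3r3 and Lrrc3b for Notch4 (both 0.95) and by Kif26a (0.95) and Depp1 (0.94) for Dll4. Jag2 was most like Lrrc3b (0.97), Depp1 (0.96) and Adgrg1 (0.95). For Jag1 the closest were Gja4 (0.92), an arterial connexin that had served in naming the cells, Cyp7b1 (0.87) and Tmem47 (0.85). For Hey1 they were Alox12 (0.88), Fam13c (0.86) and Crispld1 (0.86), for Notch1 Arhgap31 (0.88), Ldb2 (0.87) and the TGF-beta co-receptor Eng (0.85), and for Dll1 Nuak1 (0.89), She (0.85) and Cadps2 (0.85). Genes most like Notch2 included Cebpb (0.90), a transcription factor of myeloid cells, and Bcl6 (0.87), a repressor.

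The other Notch pathway genes were read from a list of 38, of which 25 reached 50 CPM in some cell group. Of these 25, 8 were highest in an endothelial subtype, 3 in mural cells, 10 in immune cells and 4 in other cells, beside 7, 2, 1 and 0 of the 10 members. For these genes, too, the split over all genes was not counted. Among the nuclear partners, Rbpj, which carries the receptor domain to DNA, was highest in macrophage-like cells at 1239 CPM (856 to 1521 over libraries), the coactivator Maml2 in venous-like cells at 974 CPM and Maml3 in non-classical monocyte-like cells at 362 CPM. The corepressor Spen peaked in the same monocytes at 119 CPM. Of the proteases that mature and cut the receptor, Adam10 was highest in lymphatic-like cells (403 CPM), Furin in ILC2-like cells (397), Psen2 in venous-like cells (325), Adam17 in non-classical monocyte-like cells (142), Psenen and Ncstn in Schwann-like cells (171 and 56.1) and Aph1a in monocyte-like cells (75.6). Of the modifiers of sugars and ligands, Mib1, needed for ligand uptake, and Mfng peaked in Aplnr capillary-like cells (154 and 55.9 CPM) and Lfng in NK cell-like cells (96.4). Among regulators of turnover, Numb peaked in large artery-like cells (341), Dtx3 in pericyte-like cells (387), Itch in Schwann-like cells (221), Fbxw7 and Dtx1 in lymphatic-like cells (125 and 116) and Dtx2 in epicardial-like cells (57.9). The further targets Hey2 and Nrarp were highest in smooth muscle-like cells at 138 CPM (96.4–191) and 145 CPM (103–199), and Hes1 in ILC2-like cells at 420 CPM, followed by smooth muscle-like cells at 283 CPM.

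The same 4 comparisons were read for these pathway genes, against the same shares of all genes. Arterial-like against capillary-like cells gave 0 calls in either direction among 23 genes read. Endocardial-like against capillary-like cells gave 1 higher (Psen2, 207 against 22.2 CPM, ratio 9.33, 8.60–10.1) and 2 lower (Mfng at 0.227 and Nrarp at 0.171) among 24. Smooth muscle-like against pericyte-like cells gave 2 higher (Hey2 at 2.72, 1.72–4.27, and Nrarp at 5.21, 3.10–8.88) and 4 lower (Ncstn, Numb, Dtx3 and Dtx4) among 26. Mural-like against endothelial-like cells gave 5 higher (Dtx4 at 67.6, Hey2 at 23.1, Dtx3 at 16.3, Maml3 at 2.73 and Hes1 at 2.45) and 2 lower (Mfng at 0.0649 and Adam10 at 0.331) among 28. Hey2 in smooth muscle-like cells was not separated from valve endocardial-like cells, which had 109 CPM (88.9–132) and overlapping libraries.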

How the data were processed

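The authors deposited 1 table of raw UMI counts that joins the 4 libraries, made with Cell Ranger 7.1.0 on mm10 per the submitters' processing notes. Counts were used as deposited. Cells needed 500 UMIs, 250 genes and at most 15% mitochondrial UMIs, which 38910 of 39731 barcodes met. Scrublet, run per library in scanpy 1.11.5, marked 1316 doublets. Its own threshold marked 0.00% of library 3, which was given the median threshold of the other libraries (0.208). The 37594 cells left were clustered (2000 variable genes, 30 components, 15 neighbours, Leiden 0.10.2 at resolution 1) without Notch, mitochondrial, ribosomal, sex-linked and reporter genes, and named "-like" from at least 3 markers. Endothelial clusters were first named against the other endothelial clusters. Any left without a name was called capillary-like where a capillary list named it against non-endothelial clusters. The capillary-like name is therefore partly one by default. After the clusters were seen, haemoglobin genes were left out of the clustering, the erythroid list was left out of naming, and the mixed, mural and arterial clusters were divided again.

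UMIs were summed per cell group and given as CPM with exact Poisson intervals, shares with Clopper-Pearson intervals and ratios with conditional binomial intervals (95%, counting error only). A ratio counted as called at 2-fold or more with 20 CPM added to both sides, for genes of at least 20 CPM in either group. A count of 0 was read as at most 3 UMIs. Shares were read after thinning to 1000 UMIs, which left out 2311 shallower cells. The 4 libraries are not tied to samples in the sources used here and count as 1 sample, so no test across samples was run. All 10 members are named, other pathway genes at 50 CPM or more in a cell group, and for each member the 3 genes of highest r, except a few genes that are not reported here. The members and lists were chosen with earlier results of these data known. The 2-fold call was tested on simulated Poisson sums, for genes at 50 CPM or more and without spread between cells or libraries. Clustering, naming, doublet calling and thinning were not tested on simulated data. Alternatives changed the cell filter, doublets, clustering, cell weights, depth, the CPM added and the libraries used.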

Additional observations from a re-analysis of the deposited data

How the results depend on the processing

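No paired analysis was possible because the libraries of the joined table are not tied to the sample labels, and the planned fits of stroke against control were not run for the same reason. In every alternative run, 9 of the 10 members had their highest level in endothelial or mural cells, and no ratio changed direction while called. Members called higher in endocardial-like than in capillary-like cells numbered 1 (Hey1) at Leiden resolution 2 and 2 (Notch2 and Hey1) with 5 CPM added, against 0 as reported. At resolution 2 no cells were named valve endocardial-like, so the endocardial-like group there held the chamber type alone. Members called lower in smooth muscle-like than in pericyte-like cells numbered 2 (Notch1 and Heyl) after thinning to 1000 UMIs and 2 with 5 CPM added, against 1 as reported. Leaving out 1 library at a time, the smooth muscle-like counts ran from 0 to 1 higher (1 without library 1) and from 1 to 2 lower (2 without library 2). Members called lower in mural-like than in endothelial-like cells ran from 3 to 4, with Hey1 added without library 2. Of 308 log2 ratios, 297 kept their side of the 2-fold line. Of 99 levels, 76 stayed within the counting interval, and 14 had another highest cell group, mostly between large artery-like and arteriolar-like cells. The causes of these changes were not tested. Rare groups limit the depth: the smooth muscle-like cells held 261502 UMIs, so that 3 UMIs equal 11.5 CPM there.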

Other observations

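Dendritic-like cells held Notch4 at 14.1 CPM (9.11–20.8) and Dll4 at 10.7 CPM (6.44–16.7), above the B cell-like levels of 1.40 and 1.27 CPM. No cells were named dendritic-like under the stricter cell filter or at Leiden resolution 2. The dendritic clusters were unlike. That of 103 cells, of which 77 came from library 3, had 35.3 CPM of Notch4 and 37.6 CPM of Dll4. It also had 22.1 CPM of Jag2 and 75.1 CPM of Notch1. The Cd209a-led cluster (101 cells) had 0.0 CPM of Notch4 and 1.14 CPM of Dll4, so the pooled values do not describe dendritic-like cells as a class. The endothelial marker list summed to 403 CPM in dendritic-like cells, from 82.7 to 599 CPM over libraries, and its part in these values was not tested.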
